A study of Mus musculus with 18 samples.

Results

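This account follows 34 genes of cholesterol and fatty acid synthesis, of the SREBP system that controls them and of sterol efflux, in mouse regulatory T cells (Treg). They are a named list that takes no measured value into account, drawn up when earlier results of these data were known. All 34 were found among the 35275 gene IDs measured, and all 34 were among the 12223 genes with enough signal to be tested.

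The study sequenced the mRNA of CD4+ cells that were sorted by YFP from mice carrying Foxp3YFPcre, in which Cre and YFP are made where Foxp3, the defining transcription factor of Treg, is active. The animals were males of 6 to 8 weeks. The deletion groups were labelled Dyrk1 (Dyrk1-fl/fl), HDAC1 (HDAC1-fl/fl), HDAC2 (HDAC2-fl/fl), Mef2c (Mef2c-fl/fl) and Mef2d (Mef2d-fl/fl), all with Foxp3 Cre. The wild type (WT) group carried Foxp3YFPcre with no floxed allele named, so Cre was present in every group. Each of the 6 groups had 3 libraries, which the series text calls independent biological replicates. The labels do not say which of the paralogs Dyrk1a and Dyrk1b was floxed, and the growth description also names Rcor1, a gene that labels no group.

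Cells make cholesterol from acetyl-CoA through mevalonate, squalene and a chain of sterol intermediates. The transcription factors SREBP1 (gene Srebf1) and SREBP2 (Srebf2) wait in the endoplasmic reticulum bound to SCAP. When sterols are scarce, SCAP carries them to the Golgi, where they are cut and released to switch on the synthesis genes. When sterols are plentiful, the INSIG proteins hold SCAP back. Oxidised sterols also activate the LXR receptors, which raise the efflux pumps Abca1 and Abcg1. T cells draw on this system when they grow and divide, and the mevalonate branch is known to be needed for Treg function.

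Values are FPKM, read counts scaled to gene length and library depth, so levels may be compared between genes. Depth read back from the FPKM steps was 15.92 to 24.09 M reads per library. Hdac1 itself was 27.8, 36.5 and 31.6 FPKM in HDAC1-labelled libraries, against 117, 118 and 122 FPKM in WT libraries. The other targeted genes were not clearly lower under their own labels by whole-gene FPKM, which cannot see the loss of single exons. Hdac2 was 28.9, 27.7 and 27.1 FPKM in HDAC2-labelled libraries, against 28.7, 27.7 and 28.4 FPKM in WT libraries. Mef2d, Mef2c, Dyrk1a and Dyrk1b lay above every WT library under their own labels. Dyrk1b reached 12.6 FPKM in Dyrk1-labelled libraries, against at most 7.54 FPKM in WT libraries. Mef2c was weakly expressed, at 0.302, 0.571 and 0.554 FPKM in WT libraries. It was 1.95, 0.903 and 0.945 FPKM in Mef2c-labelled libraries, and highest in Dyrk1-labelled replicate 1, at 8.02 FPKM. Whole-gene FPKM thus did not show these deletions. The groups are therefore named by their labels. The summed FPKM of 6 Treg markers lay between 926.4 and 1131 in all libraries, but single markers varied more. Foxp3 ran from 82.5 to 118 FPKM. Ctla4 ran from 92.6 FPKM in Dyrk1-labelled replicate 3 to 247 FPKM in Mef2c-labelled replicate 3. Ikzf2 was 51.1, 50.6 and 40.6 FPKM in WT libraries, against 53 to 76.2 FPKM in deletion libraries. B cell markers stood apart in Dyrk1-labelled replicate 1, with a summed 377.6 FPKM, against at most 45.91 FPKM in WT libraries. Myeloid and dendritic cell markers summed to 228.3 FPKM in that library, against at most 128.2 FPKM in WT libraries. CD8 T and NK cell markers summed to 97.24 FPKM there, against at most 34.7 FPKM in WT libraries. Plasma cell markers summed to 3392 to 10560 FPKM in HDAC2-labelled libraries and to 1979 to 6046 FPKM in HDAC1-labelled libraries, against 488.8 to 1578 FPKM in WT libraries. Proliferation genes summed to 611.6 to 685.1 FPKM in Dyrk1-labelled libraries and to 273.5 to 319.4 FPKM in HDAC2-labelled libraries, against 383.9 to 605.7 FPKM in WT libraries. Erythroid markers summed to 6.603 to 41.66 FPKM in Dyrk1-labelled, 91.45 to 262.3 FPKM in HDAC1-labelled, 43.55 to 303.9 FPKM in HDAC2-labelled, 15.08 to 52.5 FPKM in Mef2c-labelled and 13.24 to 55.71 FPKM in Mef2d-labelled libraries, against 25.58, 175.7 and 388.6 FPKM in WT replicates 1, 2 and 3. The part of these markers in the results below was not tested, except by leaving out the 3 libraries richest in B cell markers. In bulk RNA, fewer cells of a type and less RNA per cell cannot be told apart.

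Promoters are shown for the gene whose window holds the exact string TCACNCCAC (Hmgcs1), for the called genes Hsd17b7 and Abca1, and for the INSIG paralogs. One of these paralogs was higher under every label. The windows run from 250 bases before to 50 bases after the annotated start (RefSeq, GRCm38.p6), read 5′ to 3′ on the gene's strand. Capitals mark the sterol regulatory element TCACNCCAC bound by SREBP, the CCAAT box bound by NF-Y (ATTGG on the other strand) and the E-box CACGTG.
Hmgcs1, chr13:119690101-119690400, plus strand: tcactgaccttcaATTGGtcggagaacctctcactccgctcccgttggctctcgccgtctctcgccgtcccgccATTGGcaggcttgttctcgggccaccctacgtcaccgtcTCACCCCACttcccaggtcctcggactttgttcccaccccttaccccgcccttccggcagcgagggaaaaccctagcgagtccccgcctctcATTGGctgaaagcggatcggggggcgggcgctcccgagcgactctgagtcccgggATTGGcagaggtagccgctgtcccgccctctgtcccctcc
Hsd17b7, chr1:169969156-169969455, minus strand: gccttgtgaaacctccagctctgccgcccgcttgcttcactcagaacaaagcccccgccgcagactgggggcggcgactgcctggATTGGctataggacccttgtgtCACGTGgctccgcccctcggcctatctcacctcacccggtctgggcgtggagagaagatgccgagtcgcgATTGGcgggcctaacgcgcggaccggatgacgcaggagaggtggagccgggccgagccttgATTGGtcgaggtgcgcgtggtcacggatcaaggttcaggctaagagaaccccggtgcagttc
Abca1, chr4:53159846-53160145, minus strand: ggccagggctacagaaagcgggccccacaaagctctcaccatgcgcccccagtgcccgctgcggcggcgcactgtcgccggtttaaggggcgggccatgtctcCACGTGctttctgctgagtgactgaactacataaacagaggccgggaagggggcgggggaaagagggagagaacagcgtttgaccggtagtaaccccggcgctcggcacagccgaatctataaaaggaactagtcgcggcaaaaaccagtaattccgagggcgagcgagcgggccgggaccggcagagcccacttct
Insig1, chr5:28071162-28071461, plus strand: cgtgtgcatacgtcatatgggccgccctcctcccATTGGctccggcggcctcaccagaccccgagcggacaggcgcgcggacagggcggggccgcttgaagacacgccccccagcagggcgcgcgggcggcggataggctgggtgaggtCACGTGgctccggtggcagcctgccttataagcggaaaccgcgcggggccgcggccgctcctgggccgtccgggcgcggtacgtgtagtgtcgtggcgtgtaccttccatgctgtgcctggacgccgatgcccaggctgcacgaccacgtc
Insig2, chr1:121332540-121332839, minus strand: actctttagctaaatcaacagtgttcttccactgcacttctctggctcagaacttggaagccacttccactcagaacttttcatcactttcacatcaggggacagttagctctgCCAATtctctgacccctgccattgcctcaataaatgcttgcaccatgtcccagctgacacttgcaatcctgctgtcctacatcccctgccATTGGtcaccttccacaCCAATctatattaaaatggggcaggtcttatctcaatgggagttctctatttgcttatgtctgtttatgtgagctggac
A promoter entry was matched for 26 of the 34 genes. Both strands were searched, and no matches overlap in the windows shown. TCACNCCAC was found in 1 of the 26, Hmgcs1, and in 1.44% of all 27025 genes with an entry. CCAAT was found in 20 of the 26, or 76.9%, and in 41.1% of all genes. CACGTG was found in 6 of the 26, or 23.1%, and in 8.09% of all genes. The LXR element in its exact form, 2 copies of AGGTCA set 4 bases apart, was found in 0 of the 26 and in 0.0148% of all genes. Only these exact strings were searched, so elements that depart from them were not counted. The absence of a match thus does not show that a window lacks an SREBP or LXR site. Insig2 has 3 annotated starts, and CCAAT was found at the outermost one, shown above. A match describes the letters of a window and does not show that a factor binds there.

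The 34 genes did not move as one block under any label. Single genes were called instead. Against WT, Insig2 was higher under all 5 labels and Abca1 under the HDAC1, HDAC2 and Mef2d labels. Stard4 and Msmo1 were higher in Mef2c-labelled Treg, Hsd17b7 was higher in Mef2d-labelled Treg, and Scd2 was lower under both of these labels. Fads1 was higher and Acss2 and Elovl6 were lower in Dyrk1-labelled Treg. Differences are on the log2(FPKM + 1) scale, which understates the change of weakly expressed genes. A gene is called where its Benjamini-Hochberg adjusted p from limma, over all 12223 genes, is under 0.05. In Dyrk1-labelled libraries against WT, 5 genes were called higher and 4 lower, 26.5% of the 34, where 17.3% of all genes were called (11.1% higher and 6.19% lower). Under the HDAC1 label 2 were higher and 3 lower, 14.7% of the 34, where 12.5% of all genes were called (10.2% and 2.32%). Under the HDAC2 label 2 were higher and 1 lower, 8.8% of the 34, where 25.6% of all genes were called (16.1% and 9.41%). Under the Mef2c label 6 were higher and 1 lower, 20.6% of the 34, where 19% of all genes were called (12.9% and 6.06%). Under the Mef2d label 4 were higher and 3 lower, 20.6% of the 34, where 21.9% of all genes were called (13.9% and 7.95%). The share was above that of all genes under the Dyrk1 label and below it under the HDAC2 label, and neither gap was tested. The median log2 difference of the 34 genes was -0.01, -0.03, 0.04, 0.09 and -0.00 in the Dyrk1, HDAC1, HDAC2, Mef2c and Mef2d comparisons, beside 0.02, 0.05, 0.05, 0.04 and 0.04 for all genes tested.

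The 5 comparisons share the same WT libraries. They gave 31 calls, 19 higher and 12 lower, spread over 17 genes. The other 17 genes were called in none of the 5. The share of all genes called in at least 1 of the 5 was not counted, so these 17 and 17 cannot be set against it. An F test over the 6 groups called 14 of the 34, or 41.2%, where 38.6% of all genes were called. With the libraries scaled by RLE (median ratio) factors, the split of higher against lower was 3 and 4 under the Dyrk1 label, 2 and 2 under the HDAC2 label, and 3 and 2 under the Mef2c label. Single libraries moved 3 counts by over 1.5 times. The HDAC1 count of 5 was 3, 2 and 2 without HDAC1 replicate 1, 2 or 3 and 1 without WT replicate 3. Over all genes, the HDAC1 count of 1533 fell to 512, 805, 1016 and 421 in that order. The Mef2c count of 7 was 3 without Mef2c replicate 1 and 4 without Mef2c replicate 2, WT replicate 1 or WT replicate 3. Over all genes, the Mef2c count of 2322 fell to 1160, 1575, 1665 and 1150 in that order. The Mef2d count of 7 was 2 without Mef2d replicate 1, 4 without Mef2d replicate 2, 3 without WT replicate 1 and 1 without WT replicate 3. Over all genes, the Mef2d count of 2677 fell to 1353, 1637, 1878 and 1079 in that order. Without WT replicate 3, the library with the highest erythroid sum, 17 of the 31 calls were lost. With length and GC trends removed, those lost were Hmgcs1, Insig2 and Scd2 under the Dyrk1 label, Insig2 under HDAC1, Fads1, Fdft1 and Sqle under Mef2c, and Sc5d and Tmem97 under Mef2d. With no filter on low values, those lost were Insig2 and Scd2 under Dyrk1, Nsdhl under HDAC1, Tmem97 under HDAC2, Fads1 and Sqle under Mef2c, and Nsdhl, Sc5d and Tmem97 under Mef2d. Of the 31 calls, 7 held under every alternative, as said where each gene is described. With the 3 B cell rich libraries left out, Hsd17b7 was the 1 gene still called under the Mef2d label. Over all genes, 1467 were called there, against 2677 with all libraries. Over the 8 planned comparisons, 15 of 44 calls held when the spread came from the compared groups alone.

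**Figure D1:**
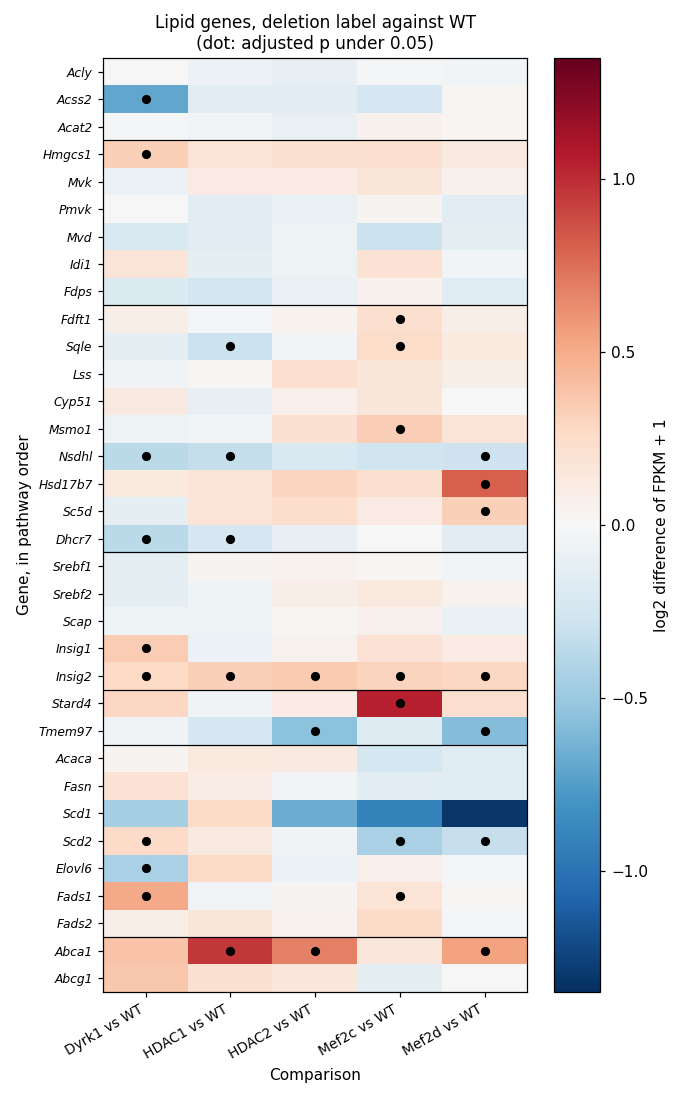
Colour gives the log2 difference of FPKM + 1 between each deletion label and WT (columns) for the 34 genes (rows, in pathway order, with lines between the roles). Dots mark an adjusted p under 0.05. Insig2 is the only row with a dot in all 5 columns, and no role is of one colour throughout.

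Among the SREBP control genes, the calls against WT were in the INSIG genes and not in the transcription factors or their escort Scap. Calls of Srebf1 and Srebf2 between the Dyrk1 and HDAC2 labels are given further below. Srebf2 was 55.6, 52.4 and 62.5 FPKM in Dyrk1-labelled libraries and 65.9, 74.3 and 64.3 FPKM in Mef2c-labelled libraries, against 62.0, 61.3 and 62.5 FPKM in WT libraries. Srebf1 was 25.4, 27.9 and 28.7 FPKM in Dyrk1-labelled libraries, all below the 30.2, 29.4 and 30.4 FPKM of WT libraries. Over all 18 libraries Srebf1 lay between 25.4 and 32.3 FPKM, and Scap between 22.1 and 27.7 FPKM. None of the 3 was called against WT: their log2 differences ran from -0.13 for Srebf1 under the Dyrk1 label (adjusted p = 0.0885) to 0.13 for Srebf2 under the Mef2c label (adjusted p = 0.201).

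Insig2, an INSIG gene that SREBP is not known to induce, was higher than WT under every label. It was 7.37, 7.44 and 6.04 FPKM in Dyrk1-labelled libraries, 7.01, 7.07 and 7.66 FPKM in HDAC1-labelled, 7.94, 7.01 and 7.34 FPKM in HDAC2-labelled, 7.47, 6.62 and 7.26 FPKM in Mef2c-labelled and 7.27, 6.48 and 7.35 FPKM in Mef2d-labelled libraries, against 5.79, 5.57 and 5.44 FPKM in WT libraries. All 15 deletion libraries lay above all 3 WT libraries, and the deletion groups overlapped one another. The log2 differences were 0.26, 0.32, 0.35, 0.30 and 0.28 in that order (SE 0.078 each), with limma adjusted p of 0.0314, 0.0172, 0.0062, 0.0164 and 0.0202. These are 5 readings against one set of WT libraries, not 5 independent ones. No pair of deletion labels differed in Insig2, with 95% intervals of the log2 difference within -0.25 and 0.18. The call under the HDAC2 label held in every alternative. With length and GC trends removed, the calls under Dyrk1 (0.204, limma adjusted p = 0.0571) and HDAC1 (0.206, limma adjusted p = 0.0526) were lost. The Dyrk1 call was also lost with no filter (limma adjusted p = 0.0585) and with the compared groups alone (limma adjusted p = 0.204). With the B cell rich libraries left out, the calls under Dyrk1, Mef2c and Mef2d were lost (0.225, 0.265 and 0.26, limma adjusted p = 0.0974, 0.0807 and 0.0785). The 4 calls other than HDAC2 were lost without WT replicate 3, at log2 differences of 0.246, 0.303, 0.279 and 0.264 for Dyrk1, HDAC1, Mef2c and Mef2d. They were also lost without Dyrk1 replicate 1 or 2 (0.225 and 0.218) or WT replicate 1 or 2 (0.285 and 0.261) for Dyrk1, without HDAC1 replicate 3 (0.285), without Mef2c replicate 1 (0.265), and without Mef2d replicate 1 or 3 (0.26 and 0.253).

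Insig1, the INSIG gene that SREBP itself switches on, rose in Dyrk1-labelled Treg. It was 19.6, 22.8 and 22.8 FPKM in Dyrk1-labelled libraries, against 17, 17.7 and 15.9 FPKM in WT libraries. The groups did not overlap, and the log2 difference was 0.35 (SE 0.075, limma adjusted p = 0.00771). With the spread taken from the Dyrk1 and WT libraries alone, the adjusted p was 0.117. Insig1 was not called under the other labels, where group means lay between 15.9 ± 1.04 FPKM (HDAC1) and 19.4 ± 1.21 FPKM (Mef2c), against 16.9 ± 0.878 FPKM in WT (SD, n = 3 each).

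**Figure D2:**
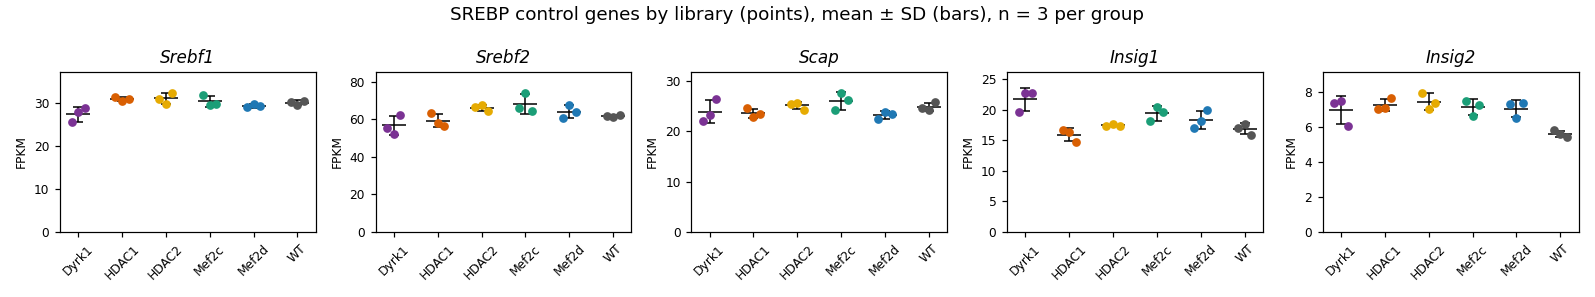
FPKM of the 5 SREBP control genes by group. Points are libraries and bars give mean ± SD (n = 3). Insig2 points of all deletion labels lie above the 3 WT points, and Insig1 is highest under the Dyrk1 label at 19.6 to 22.8 FPKM.

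The acetyl-CoA supply genes changed in one place. Acss2, which makes acetyl-CoA from acetate, fell in Dyrk1-labelled Treg. It was 7.59, 6.34 and 4.67 FPKM in Dyrk1-labelled libraries, against 10.4, 10.7 and 10.5 FPKM in WT libraries, and every Dyrk1-labelled library lay below every other library. The log2 difference was -0.70 (SE 0.111, limma adjusted p = 0.0014), and 0.0948 was the adjusted p with the compared groups alone. Adipocyte markers summed to 13.51 to 16.22 FPKM in Dyrk1-labelled libraries, against 48.71 to 59.82 FPKM in WT libraries. They summed to 0.351 and 0.394 FPKM in Mef2c-labelled and Mef2d-labelled replicate 2, where Acss2 was 8.6 and 11.1 FPKM. The part of these markers in the Acss2 result was not tested. Acss2 (ENSMUSG00000027605, chr2:155517948-155585724, GRCm38) overlaps Gss on the opposite strand, and the strand setting of the counting is not given in the sources used here. Acly, which makes acetyl-CoA from citrate, lay between 61.3 and 70.5 FPKM in all libraries. Acat2, which joins acetyl-CoA units, lay between 6.43 and 8.94 FPKM, and its reads may be shared with the near-identical Acat3. Neither was called against WT.

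In the mevalonate branch 1 of 6 genes was called, under the Dyrk1 label, where 17.3% of all genes were called. Hmgcs1, the synthase that makes HMG-CoA, was 15.4, 15.6 and 18.3 FPKM in Dyrk1-labelled libraries, against 13.7, 12.2 and 12.9 FPKM in WT libraries. The groups did not overlap, and the log2 difference was 0.32 (SE 0.088, limma adjusted p = 0.0245). The call was lost without Dyrk1 replicate 3 (0.243), WT replicate 2 (0.28) or WT replicate 3 (0.319), and under RLE scaling (adjusted p = 0.0532). It was also lost with length and GC trends removed (0.234, limma adjusted p = 0.119) and with the compared groups alone (limma adjusted p = 0.141). Mvk and Pmvk, the kinases that phosphorylate mevalonate, lay at 4.04 to 6.22 and 9.76 to 13.5 FPKM over all libraries. Mvd, Idi1 and Fdps, which carry the chain on to farnesyl diphosphate, lay at 13.7 to 20.8, 3.38 to 5.37 and 20.9 to 30.2 FPKM. None of these 5 was called under any label. At an unadjusted p under 0.05, limma gave 1 of the 6 genes under each of the Dyrk1, HDAC1 and HDAC2 labels, 2 under Mef2c and 0 under Mef2d. Of all genes tested, 32.4%, 29.1%, 39.4%, 33.4% and 36.2% had such a p under the Dyrk1, HDAC1, HDAC2, Mef2c and Mef2d labels. Fdps and Pmvk lie 0.95 and 1.31 Mb from Mef2d on chromosome 3, and neither was called in Mef2d-labelled libraries.

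Among the 9 genes from squalene to cholesterol, calls ran in both directions. In Mef2c-labelled Treg, 3 rose: Fdft1, Sqle and Msmo1, which form squalene, oxidise it and remove methyl groups from the sterol. Of all genes, 12.9% were called higher under that label. Msmo1 (ENSMUSG00000031604, chr8:64718139-64733792) was 9.07, 9.86 and 8.81 FPKM in Mef2c-labelled libraries, against 6.86, 7.20 and 7.32 FPKM in WT libraries. The groups did not overlap, the log2 difference was 0.33 (SE 0.074, limma adjusted p = 0.00657), and the call held under every alternative. Sqle was 7.88, 7.93 and 7.81 FPKM in Mef2c-labelled libraries, against 6.35, 5.83 and 7.23 FPKM in WT libraries (log2 difference 0.25, SE 0.075, limma adjusted p = 0.0293). Fdft1 was 11.1, 10.9 and 10.9 FPKM in Mef2c-labelled libraries, against 9.06, 9.28 and 9.41 FPKM in WT libraries (log2 difference 0.22, SE 0.066, limma adjusted p = 0.0283). The Fdft1 call was lost without any 1 library of either group (0.21 to 0.235) and under RLE scaling (adjusted p = 0.0783). The Sqle call was lost without any 1 of these libraries other than WT replicate 3 (0.189 to 0.257) and under RLE scaling (adjusted p = 0.0804). Fdft1 shares 774 bases with Ctsb on the opposite strand, and Ctsb averaged 61.64 FPKM.

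In Mef2d-labelled Treg, Hsd17b7 rose most of the 9. The gene (ENSMUSG00000026675, chr1:169949535-169969241, minus strand) encodes the ketosteroid reductase that completes demethylation of the sterol, and its promoter is printed above. It was 4.23, 4.13 and 3.45 FPKM in Mef2d-labelled libraries, against 1.98, 1.56 and 1.92 FPKM in WT libraries. All 3 Mef2d-labelled libraries lay above all 15 others, of which the highest was 2.82 FPKM. The log2 difference was 0.81 (SE 0.127, limma adjusted p = 0.000842), and the call held under every alternative. Sc5d, a desaturase of a later step, was 19.3, 20.9 and 22.2 FPKM in Mef2d-labelled libraries, against 16.3, 16.8 and 16.4 FPKM in WT libraries (log2 difference 0.32, SE 0.097, limma adjusted p = 0.0309). The Sc5d call was lost without Mef2d replicate 2 (0.313) or 3 (0.272) and without WT replicate 1 (0.309) or 3 (0.312). It was also lost with length and GC trends removed (0.237, limma adjusted p = 0.0868), with no filter (limma adjusted p = 0.0534) and with the B cell rich libraries left out (limma adjusted p = 0.0538).

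Dhcr7 and Nsdhl went the other way. Dhcr7, which carries out a final reduction to cholesterol, was 12.1, 11.6 and 11.9 FPKM in Dyrk1-labelled libraries and 13.2, 12.4 and 13.8 FPKM in HDAC1-labelled libraries, against 15, 15.3 and 16.3 FPKM in WT libraries. Neither group overlapped WT. The log2 differences were -0.36 (SE 0.054, limma adjusted p = 0.000932) and -0.23 (SE 0.054, limma adjusted p = 0.0158) under the Dyrk1 and HDAC1 labels. With the compared groups alone, the adjusted p was 0.091 for Dyrk1. The HDAC1 call was lost without HDAC1 replicate 1 (-0.232), HDAC1 replicate 2 (-0.191) or WT replicate 3 (-0.194).

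Nsdhl, a sterol dehydrogenase encoded on chromosome X, was 8.67, 8.28 and 6.47 FPKM in Dyrk1-labelled libraries, 8.16, 8.06 and 7.77 FPKM in HDAC1-labelled libraries and 7.92, 8.03 and 8.98 FPKM in Mef2d-labelled libraries, against 10.6, 9.11 and 11.2 FPKM in WT libraries. All lay below WT, with log2 differences of -0.37, -0.33 and -0.28 (SE 0.092 each, limma adjusted p = 0.0159, 0.0332 and 0.0434). Each call was lost without WT replicate 1 (-0.342, -0.303 and -0.255) or WT replicate 3 (-0.31, -0.271 and -0.223). The Dyrk1 call was also lost without Dyrk1 replicate 3 (-0.251), the HDAC1 call without HDAC1 replicate 1, 2 or 3 (-0.339, -0.331 and -0.308), and the Mef2d call without Mef2d replicate 1 or 2 (-0.248 and -0.257).

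Sqle also fell in HDAC1-labelled Treg, to 5.53, 4.85 and 4.86 FPKM, against 6.35, 5.83 and 7.23 FPKM in WT libraries. The log2 difference was -0.30 (SE 0.075, limma adjusted p = 0.0209), and the call was lost without HDAC1 replicate 2 (-0.268), HDAC1 replicate 3 (-0.269) or WT replicate 3 (-0.223). Lss and Cyp51, which close the sterol ring and begin its demethylation, lay at 2.34 to 3.69 and 9.53 to 13.6 FPKM and were not called against WT. Under the HDAC2 label 0 of the 9 genes were called by limma, where 25.6% of all genes were called. An unadjusted p under 0.05 was found for 5 of the 9 and for 39.4% of all genes.

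Of the 2 sterol handling genes, Stard4 gave the largest called difference among the 34. Stard4 (ENSMUSG00000024378, chr18:33199355-33213862, minus strand) encodes a soluble protein that carries cholesterol between membranes. It was 19.9, 22.2 and 17.7 FPKM in Mef2c-labelled libraries, against 9.60, 8.41 and 9.12 FPKM in WT libraries. The Mef2c-labelled libraries lay above all 15 others, of which the highest was 13.5 FPKM in Dyrk1-labelled replicate 3. The group mean was 19.9 ± 2.24 FPKM under the Mef2c label, against 9.05 ± 0.598 FPKM in WT (SD, n = 3 each). The log2 difference was 1.05 (SE 0.1, limma adjusted p = 5.14e-06), and the call held under every alternative. Mef2d-labelled libraries, at 10.7, 10.4 and 11.1 FPKM, were not called against WT (log2 difference 0.22).

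Tmem97, the sigma-2 receptor, which binds sterols and the NPC1 transporter, was lower under the HDAC2 and Mef2d labels. It was 7.22, 9.45 and 7.94 FPKM in HDAC2-labelled libraries and 8.29, 6.62 and 9 FPKM in Mef2d-labelled libraries, against 12.5, 8.63 and 17.5 FPKM in WT libraries. The groups overlapped WT, whose replicates themselves were far apart. The log2 differences were -0.55 and -0.59 (SE 0.189 each, limma adjusted p = 0.0443 and 0.038). Without WT replicate 3 they were -0.318 and -0.356 and were no longer called. Both calls were also lost without WT replicate 1 (-0.545 and -0.584), the HDAC2 call without HDAC2 replicate 1 or 3 (-0.473 and -0.534), and the Mef2d call without Mef2d replicate 1 or 2 (-0.619 and -0.477). Summed proliferation genes were 273.5 to 319.4 FPKM under the HDAC2 label and 324.4 to 376.5 FPKM under the Mef2d label, against 383.9 to 605.7 FPKM in WT, and their part in the Tmem97 result was not tested.

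Of the efflux pumps, Abca1 rose under 3 labels and Abcg1 under none. Abca1 (ENSMUSG00000015243, chr4:53030787-53159895, minus strand) passes cholesterol to lipid-poor carriers outside the cell. It was 4.91, 5.22 and 5.42 FPKM in HDAC1-labelled libraries, 3.49, 4.15 and 4.75 FPKM in HDAC2-labelled libraries and 4.15, 3.54 and 3.29 FPKM in Mef2d-labelled libraries, against 2.65, 2.17 and 1.82 FPKM in WT libraries. None of the 3 groups overlapped WT. The log2 differences were 0.95, 0.68 and 0.54 (SE 0.129 each, limma adjusted p = 0.00103, 0.00348 and 0.0102). The calls under the HDAC1 and HDAC2 labels held under every alternative. The Mef2d call was lost without Mef2d replicate 1 (0.464) or WT replicate 3 (0.449). Dyrk1-labelled libraries were 3.41, 2.63 and 3.58 FPKM and Mef2c-labelled libraries 2.80, 2.89 and 2.05 FPKM, and neither group was called.

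Markers of myeloid cells, which also express Abca1, summed to 102 to 175.9 FPKM in HDAC1-labelled libraries, 76.8 to 134.6 FPKM in HDAC2-labelled libraries and 61.55 to 140.4 FPKM in Mef2d-labelled libraries, against 88.43 to 128.2 FPKM in WT libraries. Plasma cell markers were higher under both HDAC labels, as given above, and their part in the Abca1 result was not tested. Abcg1, the pump that loads HDL, was expressed far more strongly, between 26.7 and 57.5 FPKM over all libraries. It was not called against WT, with a highest log2 difference of 0.36 (95% interval 0.06 to 0.67, limma adjusted p = 0.0925) under the Dyrk1 label.

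Of the 7 genes of fatty acid synthesis and desaturation, 3 were called against WT under the Dyrk1 label, 2 under Mef2c, 1 under Mef2d and 0 under either HDAC label. Of all genes, 17.3% were called under Dyrk1, 19% under Mef2c, 21.9% under Mef2d, 12.5% under HDAC1 and 25.6% under HDAC2. The gaps were not tested. Fads1 (ENSMUSG00000010663, chr19:10182888-10196877), a desaturase of polyunsaturated fatty acids, was 7.63, 7.16 and 8.11 FPKM in Dyrk1-labelled libraries, against 5.33, 4.76 and 5.09 FPKM in WT libraries. Every Dyrk1-labelled library lay above every other library. The log2 difference was 0.51 (SE 0.062, limma adjusted p = 0.000275), and with the compared groups alone the adjusted p was 0.0667. Fads1 was also called in Mef2c-labelled libraries, at 5.82, 5.99 and 5.88 FPKM (log2 difference 0.19, SE 0.062, limma adjusted p = 0.0481). That call was lost without any 1 library of either group (0.151 to 0.22).

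Elovl6, which lengthens palmitate, fell in Dyrk1-labelled Treg to 2.62, 2.23 and 2.40 FPKM, against 3.26, 4 and 3.60 FPKM in WT libraries. The Dyrk1-labelled libraries lay below all 15 others. The log2 difference was -0.43 (SE 0.086, limma adjusted p = 0.00491), and with the compared groups alone the adjusted p was 0.104. The adipocyte marker sums given for Acss2 also differed between these groups, and their part in the Elovl6 result was not tested. In HDAC1-labelled libraries, where those markers summed to 50.96 to 90.31 FPKM, Elovl6 was 4.46, 4.22 and 4.82 FPKM. In Mef2c-labelled and Mef2d-labelled replicate 2, where they summed to 0.351 and 0.394 FPKM, Elovl6 was 3.6 and 3.14 FPKM.

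Scd2, the stearoyl-CoA desaturase that was most abundant here, moved in opposite directions by label. It was 27.1, 28.0 and 26.7 FPKM in Mef2c-labelled libraries and 28.3, 29.9 and 31.4 FPKM in Mef2d-labelled libraries, against 39.5, 33.5 and 39.1 FPKM in WT libraries. Neither group overlapped WT. The log2 differences were -0.44 and -0.31 (SE 0.078 each, limma adjusted p = 0.00154 and 0.013). In Dyrk1-labelled libraries Scd2 was 41.6, 44.6 and 48.7 FPKM, above all WT libraries (log2 difference 0.26, SE 0.078, limma adjusted p = 0.0342). The Mef2c call held under every alternative. The Mef2d call was lost without Mef2d replicate 1 (-0.274), WT replicate 1 (-0.27) or WT replicate 3 (-0.277), and the Dyrk1 call without Dyrk1 replicate 2 (0.265), Dyrk1 replicate 3 (0.203) or WT replicate 2 (0.185) and under RLE scaling (adjusted p = 0.0725).

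**Figure D3:**
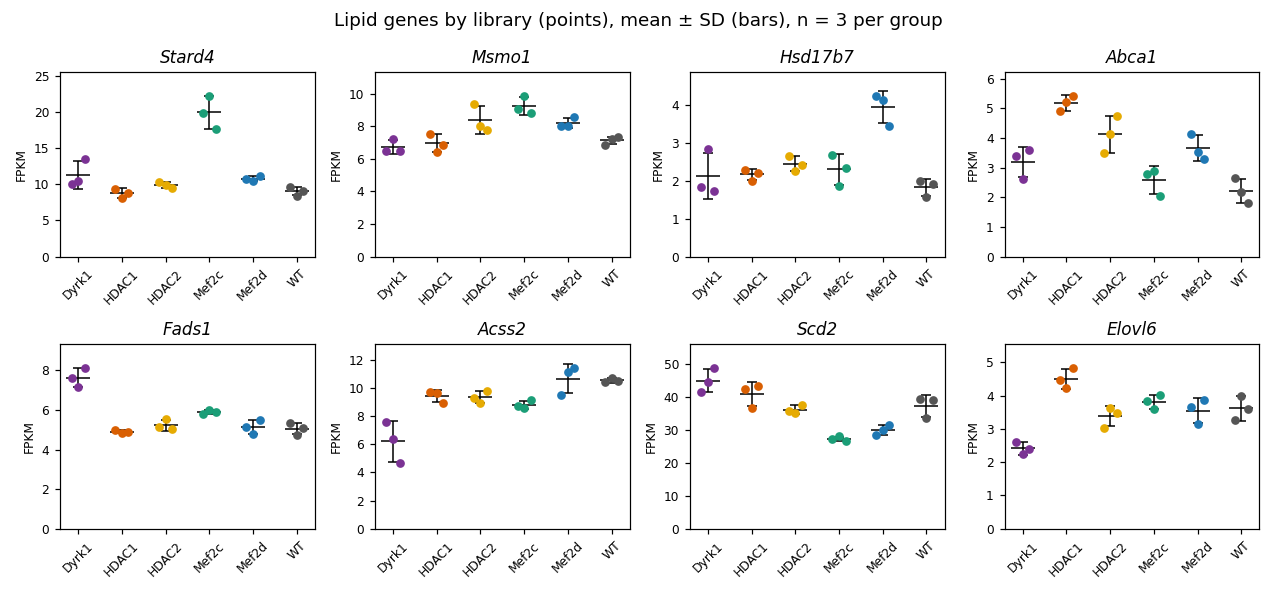
FPKM of 8 genes with large called differences, by group. Points are libraries and bars give mean ± SD (n = 3). Mef2c-labelled libraries stand above all others in Stard4 and Mef2d-labelled libraries in Hsd17b7, while Dyrk1-labelled libraries stand above all others in Fads1 and below all others in Acss2 and Elovl6.

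Scd1, the paralog of Scd2 and a desaturase that adipose tissue makes in large amounts, varied widely within groups. It was 23.6, 3.50 and 5.01 FPKM in Dyrk1-labelled libraries, 14.4, 10.6 and 15 FPKM in HDAC1-labelled, 12.5, 5 and 4.11 FPKM in HDAC2-labelled, 8.18, 1.77 and 8.85 FPKM in Mef2c-labelled and 8.49, 0.974 and 4.84 FPKM in Mef2d-labelled libraries, against 7.90, 14.2 and 11.4 FPKM in WT libraries. No label was called, although the log2 difference under the Mef2d label was -1.31 (95% interval -2.74 to 0.11, limma adjusted p = 0.172). Adipocyte markers also differed between libraries. The list of 7 such markers was drawn up after the Scd1 values had been seen. It summed to 13.51 to 16.22 FPKM in Dyrk1-labelled libraries, 50.96 to 90.31 FPKM in HDAC1-labelled, 15.94 to 54.8 FPKM in HDAC2-labelled, 0.351 to 32.35 FPKM in Mef2c-labelled and 0.394 to 24.2 FPKM in Mef2d-labelled libraries, against 48.71 to 59.82 FPKM in WT libraries.

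Mef2c-labelled replicate 2 and Mef2d-labelled replicate 2 had the lowest Scd1 and the lowest marker sums. Plin1 and Cidec, the proteins of the adipocyte lipid droplet, were listed at 0 in both of these libraries. The highest Scd1 value, 23.6 FPKM in Dyrk1-labelled replicate 1, came with an adipocyte marker sum of 13.51 FPKM. That library had the highest B cell, myeloid and CD8 T and NK cell marker sums of the series. The part of adipocyte RNA in the Scd1 values was not tested. The remaining fatty acid genes were not called against WT: Acaca and Fasn, which build the chain, lay at 3.96 to 6.92 and 20.1 to 34.4 FPKM, and Fads2, another desaturase with only 12 to 41 reads per library, at 0.374 to 1.26 FPKM.

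**Figure D4:**
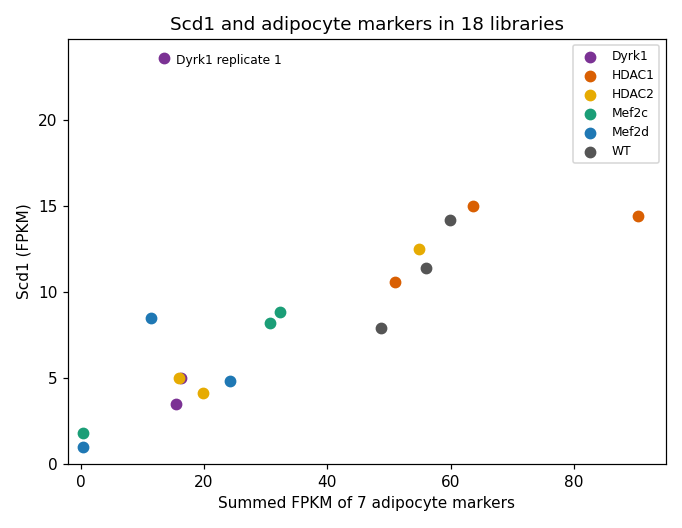
Scd1 FPKM (vertical axis) against the summed FPKM of 7 adipocyte markers (horizontal axis) in the 18 libraries, coloured by group. The 2 libraries with marker sums under 1 FPKM have 0.974 and 1.77 FPKM of Scd1, and Dyrk1-labelled replicate 1 lies apart at 23.6 FPKM.

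Direct comparisons between labels take no WT mean, although the WT libraries help to set the spread in the fit over all groups. In Mef2c-labelled against Mef2d-labelled libraries 2 of the 34 genes were called, 1 in each direction, or 5.9%, where 3.06% of all genes were called (1.6% higher and 1.46% lower). Stard4 was higher under the Mef2c label (log2 difference 0.83, SE 0.1, limma adjusted p = 0.00011) and Hsd17b7 was lower (-0.59, SE 0.127, limma adjusted p = 0.0165). The Hsd17b7 call was lost without Mef2c replicate 2 (-0.49) or 3 (-0.601) and without Mef2d replicate 1 (-0.543) or 2 (-0.558). Msmo1 (0.16, limma adjusted p = 0.398) and Scd2 (-0.13, limma adjusted p = 0.589) were not called between these labels.

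In HDAC1-labelled against HDAC2-labelled libraries limma called 0 of the 34 genes, where 1.5% of all genes were called, and 7 of the 34 had an unadjusted p under 0.05, as did 13.5% of all genes. In Dyrk1-labelled against HDAC2-labelled libraries 3 genes were higher and 8 lower, 32.4% of the 34, where 17.4% of all genes were called (7.89% higher and 9.47% lower). Those higher were Fads1, Insig1 and Scd2, and those lower were Acss2, Lss, Msmo1, Sc5d, Dhcr7, Srebf1, Srebf2 and Elovl6. The count of 11 was 5 without HDAC2 replicate 1 and 7 without HDAC2 replicate 3. With only the 6 libraries of this comparison in the fit it was 1. Over all genes, the count of 2122 fell to 1372, 1398 and 880 in that order.

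The remaining 7 pairs of labels were compared after the values had been seen, and only single genes are given from them. Of all genes, 9.5%, 19.7% and 17% were called between the Dyrk1 label and the HDAC1, Mef2c and Mef2d labels, 9.76% and 6.45% between Mef2c and the HDAC1 and HDAC2 labels, and 7.09% and 4.3% between Mef2d and the HDAC1 and HDAC2 labels. Stard4 was higher in Mef2c-labelled libraries than in HDAC1-labelled (1.10) and HDAC2-labelled (0.94) libraries, and Dyrk1-labelled libraries were lower than Mef2c-labelled ones (-0.77), each with an SE of 0.1 and limma adjusted p of at most 7.96e-05. Hsd17b7 was higher in Mef2d-labelled than in HDAC1-labelled (0.64, limma adjusted p = 0.00541) and HDAC2-labelled (0.52, limma adjusted p = 0.0296) libraries, and Dyrk1-labelled libraries were lower than Mef2d-labelled ones (-0.67, limma adjusted p = 0.00183). The Hsd17b7 difference from HDAC2-labelled libraries was lost without HDAC2 replicate 1, 2 or 3 (0.561, 0.479 and 0.51) or Mef2d replicate 1 or 2 (0.473 and 0.487). Fads1 was higher in Dyrk1-labelled libraries than under the HDAC1 (0.545), HDAC2 (0.47), Mef2c (0.32) and Mef2d (0.49) labels. Acss2 was lower in Dyrk1-labelled libraries than under the same 4 labels (-0.56, -0.54, -0.47 and -0.71), as was Elovl6 (-0.69, -0.36, -0.50 and -0.41). All 12 of these Dyrk1 differences had limma adjusted p of at most 0.00952. With the compared groups alone, 7 of the 12 were lost. These were Acss2 against HDAC1, HDAC2, Mef2c and Mef2d (limma adjusted p = 0.125, 0.0912, 0.12 and 0.0511), Elovl6 against HDAC2 and Mef2d (0.0805 and 0.0701) and Fads1 against Mef2c (0.0526). The difference of Hsd17b7 between the Dyrk1 and Mef2d labels was lost there too (limma adjusted p = 0.0524).

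A further 38 genes of the same pathways were read beside the 34, and 36 of them were tested. The alternatives were read out for the 34 genes only, so calls of this further list carry no such check. Against WT, 3 were higher and 4 lower under the Dyrk1 label (19.4% of the 36, beside 17.3% of all genes), 3 higher and 0 lower under HDAC1 (8.33%, beside 12.5%), and 7 higher and 0 lower under HDAC2 (19.4%, beside 25.6%). Under Mef2c 9 were higher and 2 lower (30.6%, beside 19%), and under Mef2d 8 were higher and 4 lower (33.3%, beside 21.9%). The median log2 differences of the 36 were -0.01, 0.07, 0.05, 0.09 and 0.07 in the order Dyrk1, HDAC1, HDAC2, Mef2c and Mef2d, beside the all-gene medians given above, and no gap was tested.

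Npc1, the lysosomal exporter of cholesterol, was 7.48, 7.62 and 6.74 FPKM in Mef2c-labelled and 6.67, 7.14 and 6.59 FPKM in Mef2d-labelled libraries, against 10.7, 10 and 9.68 FPKM in WT libraries. It fell under both labels (log2 differences -0.43 and -0.52, limma adjusted p = 0.00147 and 0.000542) and rose under the HDAC1 label (0.41, limma adjusted p = 0.00595). Acacb, the mitochondrial acetyl-CoA carboxylase, was 1.96, 1.63 and 1.54 FPKM in Mef2c-labelled and 1.84, 1.29 and 1.61 FPKM in Mef2d-labelled libraries, against 0.293, 0.389 and 0.466 FPKM in WT libraries. The log2 differences were 0.97 and 0.90. Acacb reached 1 FPKM in libraries of these 2 labels only, and the other groups reached at most 0.58 FPKM. It thus passed the filter through the groups where it was high, so no adjusted p is given for it. The counts of higher genes under these 2 labels include it.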

How the data were processed

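The deposited table holds 1 value per gene ID and library for 35275 mouse Ensembl IDs in 18 libraries. The unit of the values deposited by the authors is not named, and it was read from the values as FPKM: they sum to 430017 to 493453 per library, and low values are whole multiples of 1 read per exon length for 6779 of 23799 IDs above 0 (tolerance 0.03 reads). STAR and HTSeq and the build mm10 are named, per the submitters' processing notes, with no versions. The NEBNext Ultra II kit is given per the labels' protocols, and the strand setting of the counting is not given in the sources used here. Symbols, lengths and coordinates came from GENCODE M21, with 34490 IDs matched.

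Values were taken as log2(FPKM + 1), and genes reaching 1 FPKM in 3 or more libraries were fitted with limma 3.58.1 (R 4.3.3): 1 mean per group over all 18 libraries, 12 residual degrees of freedom, empirical Bayes with trend, and Benjamini-Hochberg adjustment over 12223 genes at 0.05, with no minimum fold. With FPKM only, no count test was run. The fit was tested on simulated data. All 34 genes are named, in full where called against WT or regulators, otherwise by range. The genes and lists were chosen with earlier results of these data known. Lists were also fixed for Treg, B cell, plasma cell, erythroid, CD8 T and NK cell, myeloid and proliferation markers; the adipocyte list and 7 pairs of labels were added after values were seen. Alternatives were a pseudocount of 0.1, no filter, RLE scaling, a replicate block, the compared groups alone, length and GC trends removed (known for 99.4% of genes), leaving out the 3 libraries whose B cell markers averaged over 1 log2 unit above the median library, and leaving out each library. No depth-based interval is given, since reads were recovered from FPKM. Some genes of the further pathway list are counted but not reported here by name.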

Additional observations from a re-analysis of the deposited data

Results flagged for a closer look

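The following differences between deletion labels are given because the test of the difference itself passed an adjusted p of 0.05. Between Mef2c-labelled and Mef2d-labelled Treg, the log2 difference was 0.83 for Stard4 and -0.59 for Hsd17b7. Between Dyrk1-labelled and HDAC2-labelled Treg, it was 0.47 for Fads1, 0.30 for Insig1 and 0.30 for Scd2, which were higher under the Dyrk1 label. It was -0.54 for Acss2, -0.36 for Elovl6, -0.36 for Sc5d, -0.28 for Msmo1, -0.27 for Lss, -0.25 for Dhcr7, -0.22 for Srebf2 and -0.18 for Srebf1, which were lower under the Dyrk1 label.

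Some were no longer called when 1 library was left out. Lss was lost without Dyrk1 replicate 1, 2 or 3 or HDAC2 replicate 1 or 3 (-0.282 to -0.197), and Srebf2 without Dyrk1 replicate 1 or 2 or HDAC2 replicate 1, 2 or 3 (-0.241 to -0.165). Srebf1 was lost without Dyrk1 replicate 1 or HDAC2 replicate 1 or 3 (-0.176 to -0.124), and Msmo1 without Dyrk1 replicate 1 or HDAC2 replicate 1 (-0.257 and -0.207). Sc5d was lost without Dyrk1 replicate 3 or HDAC2 replicate 1 or 3 (-0.332 to -0.262), and Scd2 without Dyrk1 replicate 3 or HDAC2 replicate 1 (0.248 and 0.295). Proliferation genes summed to 611.6 to 685.1 FPKM under the Dyrk1 label and to 273.5 to 319.4 FPKM under the HDAC2 label, and their part in these differences was not tested.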

How the results depend on the processing

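The number of the 34 genes called changed with the libraries in the fit, and the cause was not tested. With the compared groups alone, the counts were 0 for Dyrk1 against WT (9 over all groups), 1 for Dyrk1 against HDAC2 (11), 2 for HDAC1 against WT (5, now both higher), 4 for Mef2c against WT (7), 1 for Mef2c against Mef2d (2), 5 for Mef2d against WT (7), 3 for HDAC2 against WT (3) and 0 for HDAC1 against HDAC2 (0). Counts over all genes fell in each comparison. They were 62 for Dyrk1 against WT (2116), 880 for Dyrk1 against HDAC2 (2122) and 1066 for HDAC1 against WT (1533). For Mef2c against WT, Mef2c against Mef2d and Mef2d against WT they were 1355 (2322), 261 (374) and 1895 (2677). For HDAC2 against WT and HDAC1 against HDAC2 they were 2693 (3123) and 97 (183). For Dyrk1 against WT, the balance of 5 higher and 4 lower turned to 3 and 4 in 7 calls with no filter and with RLE scaling, and to 2 and 4 in 6 calls with length and GC trends removed. With no filter, Mef2d against WT gave 4 (7), and 2220 of all genes (2677). Leaving out the B cell rich libraries, the counts were 1 for Mef2d against WT, 4 for Mef2c against WT and 1 for Mef2c against Mef2d. Over all genes these counts were 1467 (2677), 1307 (2322) and 292 (374).

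Leaving out 1 library gave 12 to 17 in the F test (14), 6 to 10 for Dyrk1, 1 to 6 for HDAC1, 2 to 4 for HDAC2, 3 to 5 for Mef2c and 1 to 7 for Mef2d against WT, 5 to 10 for Dyrk1 against HDAC2, 1 to 3 for Mef2c against Mef2d and 0 throughout for HDAC1 against HDAC2. Of 44 single-gene calls in the 8 comparisons planned, 44 held with a pseudocount of 0.1, 40 with the replicate block, 36 with RLE scaling, 33 with no filter, 33 with length and GC trends removed, 27 with the B cell rich libraries left out and 15 with the compared groups alone, and no sign turned.

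The replicate numbers did not pair the libraries: deviations from group means had a median correlation of -0.004 over 45 same-numbered pairs and -0.036 over 90 others, and 6 of 18 libraries correlated best with their own number. With the number as a replicate block, the counts were 13 in the F test, 9 for Dyrk1, 5 for HDAC1, 3 for HDAC2, 6 for Mef2c and 6 for Mef2d against WT, 9 for Dyrk1 against HDAC2, 2 for Mef2c against Mef2d and 0 for HDAC1 against HDAC2. The alternative planned for count data was not run, since the values used here are FPKM. Depth limits Fads2 most, with 12 to 41 reads per library.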

Other observations

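Some further genes of the pathway list were also called against WT, and these calls were not checked under the alternatives. Acsl4, an acyl-CoA synthetase, was higher under the HDAC1 (log2 difference 0.29), HDAC2 (0.29), Mef2c (0.30) and Mef2d (0.29) labels, with limma adjusted p of 0.0303, 0.0185, 0.018 and 0.0218. Mbtps1, the protease that makes the first cut in SREBP, was higher under all 5 labels by 0.17 to 0.255, against the shared WT libraries. The median log2 difference of all genes tested was 0.02 to 0.053 in these comparisons. Me1, the malic enzyme that supplies NADPH, had log2 differences of -0.66, -0.68 and -0.82 under the Dyrk1, Mef2c and Mef2d labels. Me1 reached 1 FPKM in HDAC1-labelled, HDAC2-labelled and WT libraries only. It thus passed the filter through groups where it was high, so no adjusted p is given for it. The counts of lower genes under the Dyrk1, Mef2c and Mef2d labels include it. Its values were 0.343, 0.223 and 0.380 FPKM, 0.265, 0.0831 and 0.610 FPKM, and 0.256, 0.0572 and 0.226 FPKM under these labels, against 0.575, 1.79 and 1.05 FPKM in WT libraries. Adipocyte markers summed to at most 32.35 FPKM under these 3 labels, against 48.71 to 59.82 FPKM in WT libraries, and their part in the Me1 values was not tested.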
